A study of Caenorhabditis elegans with 2 samples.

Results

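The 446 sites described here are strong entries in a binding-assay list for the homeobox protein CEH-62. They lay in introns or between genes, away from the starts of protein-coding genes. They were selected on the authors' pooled signal. Entries of the pooled list on nuclear chromosomes were ranked by that signal, and the first 1000 were kept. The pooled list holds background regions as well as peaks, so a site here need not be a called peak. The authors' thresholded list of peaks, called the optimal list below, held 7 of the 446 sites. Of the first 1000 entries, 396 had their summit in a promoter window, from 1000 bp upstream to 200 bp downstream of a protein-coding gene start. A further 158 lay in an annotated exon outside such a window, and the remaining 446 are the sites of interest, out of 16710 nuclear entries in all. The 8949 entries of the same kind of position at ranks beyond 1000 served as the background. Starts of genes that are not protein-coding were not excluded, and 329 of the sites remained when starts of all annotated genes were.

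The data came from chromatin immunoprecipitation followed by sequencing (ChIP-seq) of whole Caenorhabditis elegans at the L4 larval stage, with males and females pooled, per the labels. All worms were of strain OP416, which carries the unc-119(tm4063) III allele and the transgene wgIs416, and this transgene encodes CEH-62 (R06F6.6) with GFP-FLAG at its C terminus. There was 1 such group with 2 biological replicates, a single transgenic line stood for the protein, and worms without the transgene were not analysed here. The 2 replicates shared 1 control in peak calling, and whole animals pool every tissue, so a site used in few cells and a weak site in many cannot be told apart. The sequencing depth is unknown, and the scale of the signal is not given in the sources used here.

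Homeodomain proteins such as CEH-62 contact DNA through a recognition helix, and many of them prefer short AT-rich cores of the TAAT type, of which TAATTA is the palindromic form. In C. elegans most known regulatory elements lie just upstream of genes, and others lie in introns, of which first introns are often named, and downstream of genes. The X chromosome has regulatory elements of another kind: recruitment sites (rex sites) to which the dosage compensation complex binds in hermaphrodites, where it lowers expression from both X chromosomes. A sequence called MEX, found in many rex sites, holds the core GCGCAGG.

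The reference sequences around the strongest sites show which of these letters lay there. Each is the 201 bp window centred on the summit, read on the plus strand of WBcel235 (ce11), and capitals mark TAATTA and GCGCAGG in either orientation (CCTGCGC when read from the other strand). Windows are shown only for chromosomes II to V and X, so the sites at tag-353 and W09G3.1, which rank above gtr-1, are left out. Within those chromosomes the first 8 are the strongest sites, and the sites at mop-25.1 and T24D8.6 are the strongest of the rest with TAATTA, a choice made after their sequences were seen. The windows are chrII:5844667-5844867 at ZK1248.17, chrX:12363143-12363343 at F19H6.5, chrX:16056560-16056760 at T27A8.7, chrIV:8431746-8431946 in T26A8.4, chrX:11094018-11094218 at W02H3.3, chrX:1503558-1503758 at F09E10.1, chrX:8036407-8036607 at xol-1, chrX:806493-806693 at gtr-1, chrX:4018293-4018493 in mop-25.1 and chrX:2364842-2365042 at T24D8.6. Of these 10 windows, 5 hold the GCGCAGG core, all on the X chromosome, and in the T24D8.6 window the core and TAATTA stand 1 base apart.
ZK1248.17: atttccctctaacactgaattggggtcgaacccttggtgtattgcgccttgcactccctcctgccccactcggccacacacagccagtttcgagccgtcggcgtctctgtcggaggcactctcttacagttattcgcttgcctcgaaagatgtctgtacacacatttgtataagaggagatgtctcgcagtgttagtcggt
F19H6.5: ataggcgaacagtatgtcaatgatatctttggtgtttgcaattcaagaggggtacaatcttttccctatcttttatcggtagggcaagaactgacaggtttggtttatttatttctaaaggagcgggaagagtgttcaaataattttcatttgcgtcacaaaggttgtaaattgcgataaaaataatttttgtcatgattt
T27A8.7: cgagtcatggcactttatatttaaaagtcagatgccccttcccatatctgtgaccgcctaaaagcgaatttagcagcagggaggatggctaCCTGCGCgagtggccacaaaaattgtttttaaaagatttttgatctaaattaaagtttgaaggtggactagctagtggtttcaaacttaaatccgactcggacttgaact
T26A8.4: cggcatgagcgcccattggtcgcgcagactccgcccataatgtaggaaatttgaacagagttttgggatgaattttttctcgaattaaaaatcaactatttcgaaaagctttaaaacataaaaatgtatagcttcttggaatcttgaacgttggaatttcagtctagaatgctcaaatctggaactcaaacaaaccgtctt
W02H3.3: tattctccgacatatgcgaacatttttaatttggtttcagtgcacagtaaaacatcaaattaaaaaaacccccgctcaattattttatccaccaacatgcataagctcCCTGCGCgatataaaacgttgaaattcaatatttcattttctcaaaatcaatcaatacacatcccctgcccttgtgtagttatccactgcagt
F09E10.1: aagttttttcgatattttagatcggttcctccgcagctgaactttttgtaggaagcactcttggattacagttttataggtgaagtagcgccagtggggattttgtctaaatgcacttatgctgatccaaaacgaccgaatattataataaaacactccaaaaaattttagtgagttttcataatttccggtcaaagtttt
xol-1: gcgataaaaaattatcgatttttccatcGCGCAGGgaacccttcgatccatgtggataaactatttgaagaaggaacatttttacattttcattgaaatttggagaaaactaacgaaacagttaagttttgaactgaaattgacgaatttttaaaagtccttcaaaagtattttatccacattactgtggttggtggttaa
gtr-1: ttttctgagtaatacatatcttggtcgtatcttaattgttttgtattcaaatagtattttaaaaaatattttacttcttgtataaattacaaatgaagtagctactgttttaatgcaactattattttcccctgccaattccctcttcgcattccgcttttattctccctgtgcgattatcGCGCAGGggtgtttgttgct
mop-25.1: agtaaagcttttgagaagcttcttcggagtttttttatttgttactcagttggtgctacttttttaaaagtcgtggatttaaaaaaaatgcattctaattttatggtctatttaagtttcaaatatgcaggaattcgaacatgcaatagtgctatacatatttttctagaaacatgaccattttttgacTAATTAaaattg
T24D8.6: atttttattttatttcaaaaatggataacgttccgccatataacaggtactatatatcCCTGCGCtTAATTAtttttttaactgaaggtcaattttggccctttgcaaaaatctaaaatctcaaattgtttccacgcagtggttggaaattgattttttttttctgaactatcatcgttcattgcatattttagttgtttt

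The strongest site, with a pooled signal of 65.4, lay between genes on chromosome II, 98 bp from sls-2.1, which encodes an RNA of the spliced leader 2 family used in trans-splicing. Its replicate signals were 29.6 in replicate 1 and 41.9 in replicate 2, and its nuclear ranks in those lists were 4 and 3. It was high in both replicates, and its window had a GC content of 52.7%, with no TAAT at all. The site 116 bp past a gene end near F19H6.5 on X had a pooled signal of 58.02 and replicate signals of 22.4 and 37.2, at ranks 58 and 8. In the first intron of T26A8.4 on chromosome IV the pooled signal was 51.9 and the replicate signals were 27.7 and 21.9, at ranks 8 and 148. These were the sites among the strongest 7 that stood high in both lists.

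The other 4 of the strongest 7 were high in 1 replicate. At T27A8.7 on X, with a pooled signal of 53.7, replicate 2 gave 39.1 at rank 5 and replicate 1 gave 7.77 at rank 19872. At W02H3.3 on X, with a pooled signal of 48.7, replicate 2 gave 40.3 at rank 4. Replicate 1 gave 15.63 at rank 1017, close to its 15.66 at rank 1000. The site 4806 bp upstream of xol-1, the master switch gene of sex determination and dosage compensation, had a pooled signal of 43.6, with 32.5 at rank 15 in replicate 2 and 10.02 at rank 9336 in replicate 1. At F09E10.1 on X the order was the opposite: the pooled signal was 46.2, replicate 1 gave 21.6 at rank 78, and no summit of replicate 2 lay within 150 bp. These 7 sites, or 1.57% of the 446, were the ones in the optimal list, which held 0.162% of all nuclear entries. That list was taken by the authors from the pooled ranking, so membership follows from the signal that chose the sites.

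**Figure D1:**
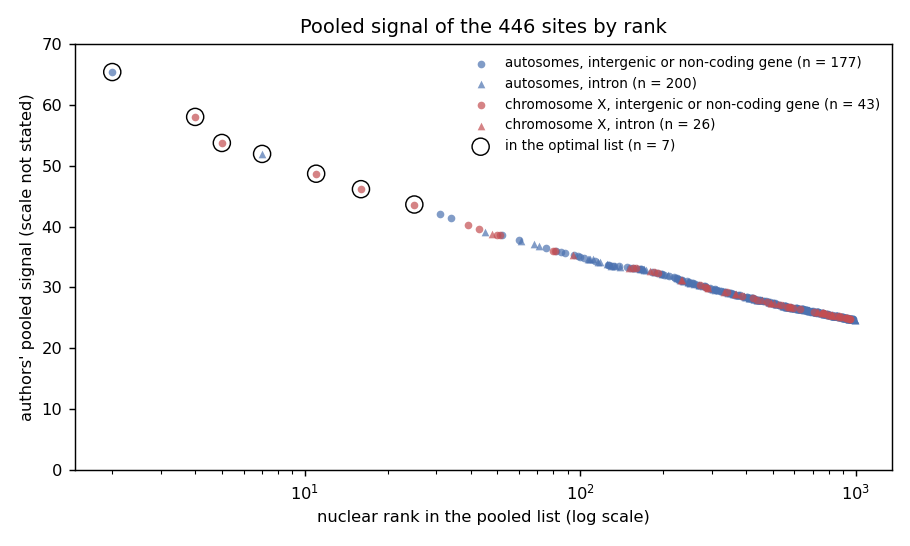
Pooled signal of each of the 446 sites (vertical axis, scale not stated) against its nuclear rank in the pooled list (horizontal axis, log scale). Red marks X and blue the autosomes, triangles are introns and circles the rest, and black rings mark the 7 sites of the optimal list, which lie between 43.6 and 65.4, while the median site has 26.9.

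Signal fell quickly below these sites. The pooled signal of the 446 ran from 24.7 to 65.4 with a median of 26.9, against a background median of 16.01. At the rank limit, the last site inside lay in an intron of rga-5 at rank 998 with a signal of 24.74, and the first outside lay in Y57G11C.31 at rank 1001 with 24.73, so the limit falls in a continuous range. Each listed interval was 336 bp long with its summit at the centre, and 96 of the 446 intervals reached into a protein-coding exon although their summits did not.

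The replicates ranked the sites differently. A replicate summit within 150 bp was found for 417 sites in replicate 1 and for 384 in replicate 2. The matched signal ran from 6.64 to 29.6 in replicate 1, with a median of 14.3, and from 5.90 to 41.9 in replicate 2, with a median of 13.3. Among the first 1000 nuclear entries of replicate 1 were 164 sites, or 36.8%, against 5.33% of all pooled nuclear entries, and among those of replicate 2 were 122, or 27.4%, against 5.21%. Both lists held 26 sites in their first 1000, or 5.83% (95% interval 3.84 to 8.43), against 0.383% of all pooled nuclear entries, and 186 sites were in neither. The pooled list was called from the reads of both replicates and the pooled signal chose the sites, so these shares describe the sites and are not an independent check.

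**Figure D2:**
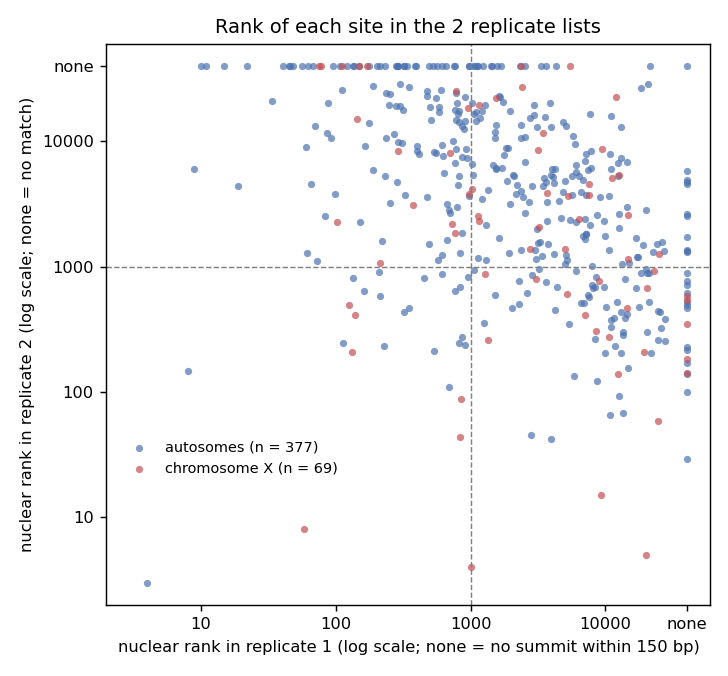
Nuclear rank of each site in replicate 1 (horizontal) and replicate 2 (vertical), both on log scales; red points are on X, blue points on autosomes, and sites with no summit within 150 bp are drawn at "none". The dashed lines mark rank 1000: 26 sites lie below and left of both lines, and 186 lie beyond both.

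The 26 sites in the first 1000 of both replicates lay at genes of many kinds, and no theme among them was tested. After the 3 named above, they began with tag-353 (42.03 pooled, replicate ranks 227 and 231), gtr-1 (40.2, ranks 140 and 409) and F20B6.9 (39.7, ranks 839 and 44). In the first intron of lea-1, a relative of plant late embryogenesis abundant proteins that protect against drying, the pooled signal was 39.2 at ranks 872 and 276. The first intron of mop-25.1, of the MO25 scaffold family, had 38.8 at ranks 126 and 495. T24D8.6 (38.6, ranks 847 and 88) and K02D3.1 (38.6, ranks 132 and 209) followed, both on X. At frpr-5, of the FMRFamide peptide receptor family, the signal was 37.7 at ranks 135 and 807. The remaining sites included introns of phf-15 (37.1) and of obr-4 (36.9), an oxysterol-binding protein relative, and intergenic sites at ppk-2 (36.5), a phosphatidylinositol phosphate kinase gene, at rps-15 (33.7), which encodes a small ribosomal subunit protein, and at xdh-1 (31.6), for xanthine dehydrogenase. The gene mfb-1 had 2 of these sites, with signals of 35.1 and 34.9.

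Several sites among the strongest 25 were outside the first 1000 of 1 or both replicates, some of them only just. In the second intron of egl-9, the gene for the prolyl hydroxylase that marks HIF-1 for degradation, the pooled signal was 37.6, with 27.1 at rank 42 in replicate 2 and 12.3 at rank 3918 in replicate 1. At cec-4, which encodes a chromodomain protein of the nuclear periphery, the pooled signal was 38.5, with 21.0 at rank 99 in replicate 1 and 12.2 at rank 3792 in replicate 2. At W09G3.1 the pooled signal was 41.4, and its ranks of 1133 and 1166 fell just short of the first 1000 in both. F35H12.6 (35.9, ranks 102 and 2278) and epn-1, an epsin gene of endocytosis (36.1, ranks 212 and 1066), were higher in replicate 1. The site at T28B8.1 (35.9) had rank 214 in replicate 1 and no match in replicate 2 within 150 bp. A further T28B8.1 site lay 223 bp away, with an overlapping interval and a pooled signal of 27.96. It had rank 29 in replicate 2, with a signal of 28.6, and no match in replicate 1. This locus thus held a high entry in each replicate, although neither site was matched in both.

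Introns of protein-coding genes held 226 of the 446 sites, or 50.7% (95% interval 45.9 to 55.4), against 58.6% of the background (57.6 to 59.7). Another 218 sites, or 48.9%, were intergenic, against 40.1%, and 2 lay in introns of non-coding genes. The intervals are exact (Clopper-Pearson) and cover only counting error over regions, with no measure of how worms vary, and no p-value was computed because regions of 1 experiment are not replicates. The intronic share was lowest at the top of the ranking, at 7 of 30 sites (23.3%) in ranks 1 to 100, 47.6% in ranks 101 to 300 and 53.9% in ranks 301 to 1000. By the same rule, the replicate 2 list gave 53.9% against 59.1% of its own background, and the replicate 1 list gave 57.3% against 58.3%, so the gap was about 1 percentage point without replicate 2.

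Intronic sites lay in first introns in 74 of 226 cases, or 32.7% (26.7 to 39.3), against 23.6% of the intronic background (22.4 to 24.8). The single-replicate lists gave 30.5% and 32.2%, against 23.1% and 22.9% of their own intronic backgrounds. In any intron, 49 intronic sites (21.7%, 16.5 to 27.6) were within the promoter window of a further annotated transcript start of a gene. That compares with 13.1% of the intronic background, and a link of this count with first introns was not tested. The introns that held sites had a median length of 1232 bp (963 to 1558), against 948 bp. The longest, at 16465 bp, was the first intron of fkh-7, a forkhead factor gene, which held 3 sites. The median site was 2296.5 bp from the nearest protein-coding start, with a range of 212 to 20004 bp, and the background median was 2478 bp.

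Sites just past the ends of genes numbered 56, counted as intergenic summits within 500 bp after the end of a protein-coding gene. That was 12.6% of the sites (9.63 to 15.99), against 7.49% of the background (6.95 to 8.05), and 25.7% of the intergenic sites (20.03 to 32.02), against 18.7%. The share was 36.7% in ranks 1 to 100, 13.1% in ranks 101 to 300 and 10.2% in ranks 301 to 1000. Examples are the sites at F19H6.5 (116 bp), T24D8.6 (121 bp) and epn-1 (39 bp). The site upstream of ppk-2 is another, 20 bp past the end of a different gene. The replicate 1 list gave 7.89% against 6.85% of its own background, so most of this difference was absent without replicate 2.

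Genes of small structural RNAs lay near 16 sites, 3.59% of the 446 (2.06 to 5.76) and 1.36% of the background (1.13 to 1.63), counted within 500 bp of a tRNA, snRNA, snoRNA or rRNA gene. Besides sls-2.1, they included the snoRNA genes F32E10.10, 46 bp from the site at cec-4, and ZK994.7, 64 bp from a site at pxn-1 with a signal of 31.4. A tRNA gene lay 178 bp from the xol-1 site, and tRNA genes accounted for 10 of the 16. The replicate 1 list gave 2.26% against 1.18% of its own background, and the replicate 2 list 4.63% against 1.38%.

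**Figure D3:**
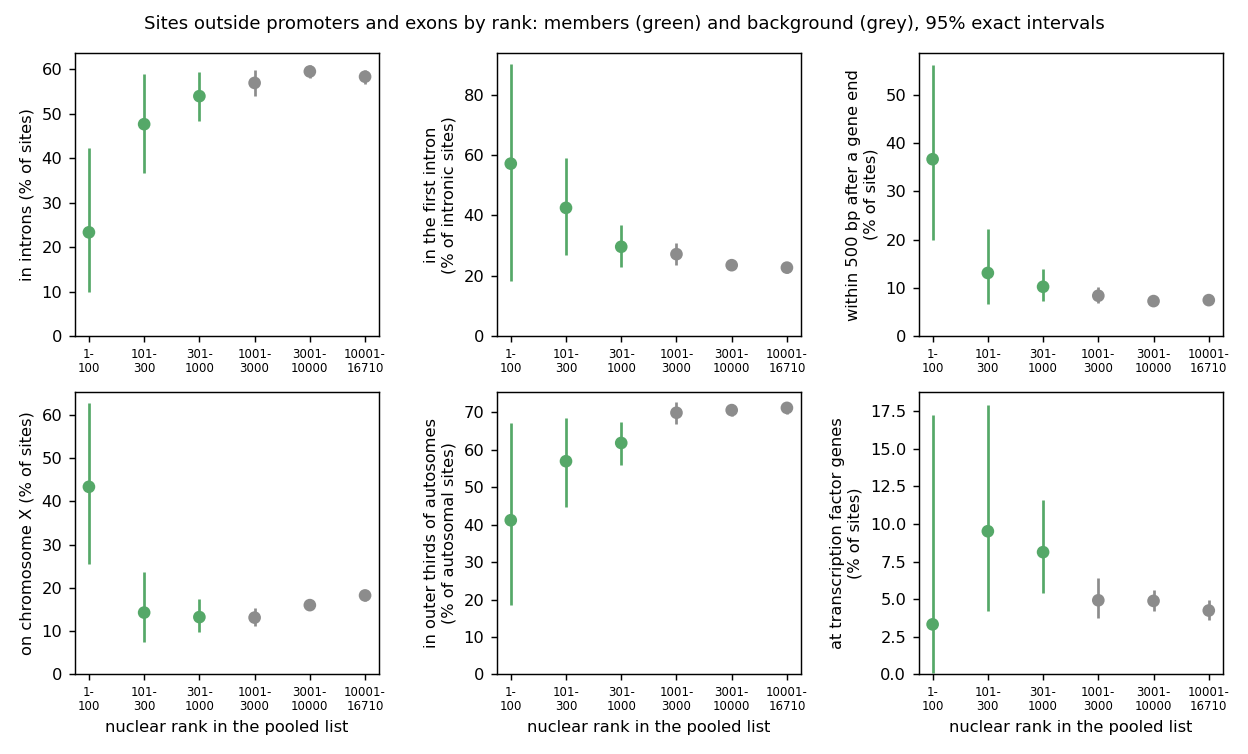
Share of sites outside promoters and exons (vertical axes, percent) by class of nuclear rank in the pooled list (horizontal axes), for 6 features; green points are the 446 sites, grey points the background, and bars are exact 95% intervals. In ranks 1 to 100 the shares after gene ends (36.7%) and on X (43.3%) were the highest of the 6 rank classes and the intronic share (23.3%) the lowest.

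The X chromosome held 69 of the 446 sites, or 15.5% (12.2 to 19.2), against 16.6% of the background, but the strongest sites were differently placed. In ranks 1 to 100, 13 of 30 sites were on X, or 43.3% (25.5 to 62.6), and in ranks 101 to 300 and 301 to 1000 the shares were 14.3% and 13.3%. Of the strongest 25 sites, 12 were on X. The same rule applied to the single-replicate lists put 10 of the strongest 25 on X in replicate 2 and 1 in replicate 1, so the replicates differed in this count.

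The GCGCAGG core followed the same sites. Within 100 bp of the summit it was present in 6 of the 13 X sites in ranks 1 to 100, or 46.2% (19.2 to 74.9), in 2 of the 56 X sites in ranks 101 to 1000, and in 9 of the 1489 X sites of the background, or 0.604% (0.277 to 1.14). Autosomal sites had it in 2 of 377 cases, or 0.531%, and 0 of the 17 in ranks 1 to 100 did. The reference holds the core at 20.2 copies per Mb on X and 19.9 on autosomes. The 6 strongest carriers were T27A8.7, W02H3.3, xol-1, gtr-1, F20B6.9 and T24D8.6, and the other 2 on X were in an intron of Y41G9A.17 (26.8) and at the collagen gene col-185 (26.7). The autosomal carriers were W03C9.1 and B0546.3, with signals of 25.6 and 25.4. The longer form GCGCAGGG was present at 7 of the 69 X sites and at 0 of the 377 autosomal ones, and the reference holds it more densely on X, at 4.57 copies per Mb against 2.82 on autosomes. The core was searched for after the sequences had been read, so these counts describe the sites that led to the search. A match is a description of the letters and not evidence of a factor at the site, and the part of dosage compensation elements in these signals was not tested.

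Counts of the core also differed between replicates, over few sites and with overlapping intervals. By the same rule, the list of replicate 2 had it at 5 of 10 X sites in ranks 1 to 100 (18.7 to 81.3%). In ranks 1 to 1000 it was at 7 of 85, or 8.24% (3.38 to 16.2). The list of replicate 1 had it at 0 of 5 (0 to 52.2%) and at 3 of 68, or 4.41% (0.919 to 12.4). At ranks beyond 1000 the shares on X were 0.545% in replicate 2 and 0.439% in replicate 1. Of the 6 strongest carriers, gtr-1 ranked higher in replicate 1 (140) than in replicate 2 (409), and the other 5 ranked higher in replicate 2.

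**Figure D4:**
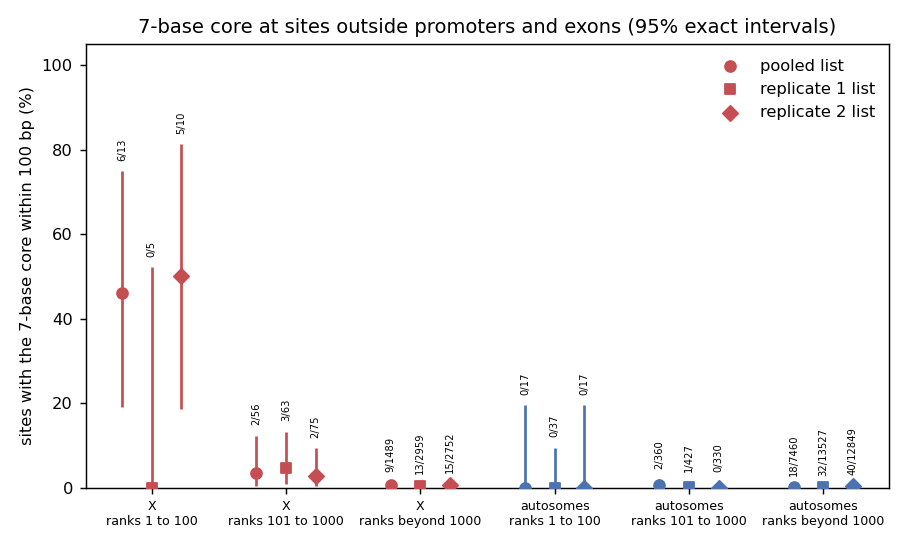
Share of sites outside promoters and exons with the 7-base core described in the text within 100 bp of the summit (vertical axis, percent), for X (red) and autosomes (blue) in 3 rank classes of the pooled list (circles), the replicate 1 list (squares) and the replicate 2 list (diamonds). Bars are exact 95% intervals and the fractions give sites with the core over all sites; the pooled and replicate 2 lists reach 46.2% and 5 of 10 for X in ranks 1 to 100, and replicate 1 has 0 of 5.

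The homeodomain core TAATTA lay within 100 bp of 63 of the 446 summits, or 14.1% (11.0 to 17.7), against 11.2% of the background (10.5 to 11.8), and the intervals overlap. The replicate 1 list had the opposite order, with 11.5% of sites and 11.7% of its background. TAATTA is AT-rich, and the windows of sites and background were nearly alike in base composition, with median GC contents of 30.3% (29.4 to 31.3) and 30.8%. Within the lowest, middle and highest GC classes, the sites had it in 18.3%, 14.9% and 7.81% of windows and the background in 16.1%, 10.3% and 6.39%. In ranks 1 to 100, 101 to 300 and 301 to 1000 the shares were 13.3%, 15.5% and 13.9%. TAAT occurred 3.10 times per window on average, against 2.97. Of the strongest 7 sites, 0 held TAATTA, and the site with the highest signal that did was the one at tag-353.

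Other short sequences were searched on both strands in the same windows. TGATAA, the GATA factor core, was in 19.3% of sites and 18.2% of the background, GAGAGA in 10.1% and 9.05%, the E-box CACGTG in 1.35% and 2.37%, TATAAA in 26.2% and 27.8%, and CCGCCC in 3.59% and 2.84%. A run of 8 T (TTTTTTTT) was in 33.4% of sites (29.04 to 38) and 38.5% of the background (37.5 to 39.5). No site lay in sequence that is mostly repeated elsewhere in the reference, which at 0 of 446 allows a share of up to 0.824%, and 0.279% of the background did.

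On the autosomes, 226 of 377 sites, or 59.95% (54.8 to 64.9), lay in the arms of their chromosome, taken as all but the central part when it is cut into 3 equal lengths, against 70.8% of the background (69.7 to 71.8). Chromosome arms hold fewer broadly expressed genes and more repeats than the centres. The share rose with rank, from 41.2% in ranks 1 to 100 through 56.9% and 61.8% in the following classes to 69.9% in ranks 1001 to 3000, and both single-replicate lists also had lower shares than their backgrounds, at 60.5% against 69.1% and 65.1% against 70.4%. Chromosome IV held 117 sites, or 26.2% (22.2 to 30.6), against 20.4% of the background (19.6 to 21.3). Its share was 13.3% (4 of 30, interval 3.76 to 30.7) in ranks 1 to 100, 21.4% in ranks 101 to 300 and 28.6% (23.8 to 33.8) in ranks 301 to 1000, so the weakest of these classes alone had an interval above the background share. Much of that chromosome carries piRNA genes, and a piRNA gene lay within 1000 bp of 59 of the 117 sites, or 50.4% (41.0 to 59.8), against 41.6% of the background on IV (39.3 to 43.9).

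Genes of transcription factors other than homeobox factors were the host or the nearest gene of 36 sites at 28 genes, which is 8.07% of the sites (5.72 to 11.0), against 4.62% of the background (4.19 to 5.07). In ranks 1 to 100 the count was 1 of 30 (3.33%, 0.0844 to 17.2), below the background share though its interval includes it, and the following classes had 9.52% and 8.13%. By distinct genes the shares were 6.85% and 3.70%. In introns the share was 9.29% against 4.36%, and between genes 6.88% against 5.07%. The replicate 1 list gave 4.89% against 4.16%, and the replicate 2 list 6.71% against 4.51%, so most of the difference was absent when replicate 2 was left out. The factor genes named next lie outside the naming rule and were chosen after their values were seen.

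Nuclear hormone receptor genes were among them. The first intron of nhr-1 had a pooled signal of 35.4, with 22.1 at rank 140 in replicate 2 and 9.23 at rank 12322 in replicate 1. The first intron of nhr-88 had 34.2, with 24.7 at rank 66 in replicate 2 and 9.63 at rank 10759 in replicate 1. The first intron of daf-12, the steroid receptor of the dauer decision, had 33.3. Replicate 1 gave 17.97 at rank 372 and replicate 2 gave 12.7 at rank 3094, and the window of this site holds TAATTA. The first intron of pha-4, the FoxA factor of the pharynx, had 32.9, at ranks 491 and 1509. These sites were each among the first 1000 of 1 replicate only, and the windows at nhr-1, nhr-88 and pha-4 hold no TAATTA.

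Some factor genes held several sites. fkh-7 had 4, all in its introns, with pooled signals of 33.4, 32, 27.3 and 26.8, and the first of them ranked 9 in replicate 1 and 6081 in replicate 2. The other fkh-7 sites had ranks in replicates 1 and 2 of 12270 and 520, 1108 and no match, and 2207 and 4514. dmd-6, a DM-domain factor gene, had 4 within 15711 bp, with signals of 29.1, 28.7, 26.6 and 26.6. Their ranks were 1932 and 1278, 7569 and 578, 768 and 17799, and 562 and no match. No site of either gene was in the first 1000 of both replicates. The fkh-7 windows hold no TAATTA, and among the dmd-6 windows only the one ranked 562 in replicate 1 holds it. Further sites lay at hif-1 (27.7), the hypoxia factor whose regulator egl-9 is named above, at the developmental timing genes lin-14 (25.4) and hbl-1 (25.6), and at fos-1 (25.7). In introns of pop-1 and lag-1, the transcription factors of the Wnt and Notch pathways, the signals were 25.3 each, and each gene's site stood in the first 1000 of a single replicate.

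Homeobox genes, the class of CEH-62 itself, had 1 site of the 446 (0.224%, 0.00568 to 1.24), against 0.927% of the background. It lay in the third intron of ceh-2, an EMS-type homeobox gene, with a pooled signal of 28.5 and replicate signals of 16.5 at rank 705 and 13.1 at rank 2666, and its window holds TAATTA. The nearest site to the ceh-62 gene was 43137 bp away.

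The other gene lists had shares whose intervals included the background values or lay close to them. Neuropeptide and insulin genes had 6 sites, all of them intergenic (1.35%, 0.495 to 2.91, against 0.704%), among them flp-10 with 31.6 and nlp-61 with 29.99. Chemoreceptor genes had 10 (2.24%, 1.08 to 4.08, against 2.32%) and ion channel and neurotransmitter receptor genes 13 (2.91%, 1.56 to 4.93, against 4.59%). Collagen and cuticle genes had 4 (0.897% against 0.793%), muscle genes 3 (0.673% against 0.525%) and ribosomal protein genes 2 (0.448% against 0.212%), the latter rps-15 and rpl-19.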

How the data were processed

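Per the deposited file inventories, every replicate's list contains both peaks and background regions, called with 1 shared control. A pooled list came from the reads of both replicates and likewise contains peaks and background regions. The authors' deposited signal values (1 per entry) were used to rank and describe entries within a list. The pooled scale differs from that of the replicates, so values were not set against each other. Peak caller, aligner and depth: not given in the sources used here. The ce11 lists (4) were used, with WBcel235 sequence and Ensembl release 115 gene models. Mitochondrial entries were dropped.

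An intronic site was assigned to its host gene and an intergenic site to the gene with the nearest protein-coding start. Replicate entries matched within 150 bp of a summit. Shares carry exact Clopper-Pearson 95% intervals and medians carry order-statistic intervals. There is 1 group, so no test was run. Sequence was called repeated where most of its 36-mers occur at more than 1 place. Position, intron and motif steps were checked on simulated data with Python 3.11.15, numpy 2.4.6, pandas 2.3.3 and scipy 1.17.1.

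The members and lists were chosen with earlier results of these data known. The gene lists were written after the files had been seen, and wrong prefix matches in them were corrected after first counts had been seen. First introns, other transcript starts, gene ends, small RNA genes, piRNA genes and GCGCAGG were likewise added after values or sequences had been seen. The rule for named sites took the 25 with the highest pooled signal, those in the optimal list, up to 15 more in the first 1000 of both replicates, homeobox genes and the sites at the rank limit. The 2 replicates are labelled as biological. Alternatives changed the rank limit, promoter window, gene starts, exons, counting of distinct intervals, window size, matching distance and replicates used.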

Additional observations from a re-analysis of the deposited data

How the results depend on the processing

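Of 144 values under alternative settings, 121 stayed within the interval of the reported value or, for the number of sites, within 1.5 times of it. The 121 include, for every result, the setting that counts distinct intervals once. It could change nothing, because all 446 intervals are distinct. With rank limits of 500 and 2000 there were 200 and 965 sites. The share in the first 1000 of both replicates was then 13% and 2.69%. It was 3.36% with summits matched within 75 bp and 10.54% with the first 2000 of each replicate. Each share that follows is set against the background of its own setting. With the limit of 500, 39.78% of intronic sites were in first introns (background 23.69%) and 16% of sites lay just after gene ends (7.55%). With the limit of 2000, 65.17% of autosomal sites were in the arms (70.83%). A promoter window of 500 bp upstream to 100 bp downstream gave 45.8% in introns (54.93%) and 24.24% near another transcript start (19.33%). A window of 2000 bp upstream to 500 bp downstream gave 25.93% of intronic sites in first introns (19.08%). With starts of all annotated genes as promoters, 329 sites were left. The rest of the main set lay in the start window of a gene that is not protein-coding. Of the 329 sites, 5.47% were at other transcription factor genes (4.29%). Sites near small RNA genes fell to 0.0% against 0.279% of the background, the reverse order, because such sites are then promoters by construction. TAATTA was in 7.17% of windows of 50 bp to each side (5.79%) and in 20.18% of 150 bp (16.26%).

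Leaving out 1 replicate means using the other's list. The ranges were 432 to 532 sites, 53.94% to 57.33% in introns, 12.78% to 19.68% on X, 60.52% to 65.09% in the arms, 4.89% to 6.71% at transcription factor genes, 7.89% to 11.11% after gene ends, 4.41% to 8.24% of X sites with GCGCAGG, and median GC contents of 30.35% to 32.84%. The order against the background held in each of these except X and GC content, which were above their backgrounds (17.64% and 31.84%) only in the list of replicate 2. TAATTA was in 11.47% of sites in the list of replicate 1, against 11.71% of its background, and in 12.04% against 11.08% in that of replicate 2. The cause of these changes was not tested. No paired analysis was possible because there is only 1 group. Alternatives for gene lists, first introns, gene ends, transcript starts, small RNA genes and GCGCAGG were chosen after seeing the data. The ce10 lists were not used here. Depth is unknown, so no limit from counting reads can be given.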

Other observations

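The median distance from a site to the next was 59093 bp, 24 sites had another within 2000 bp, and 82 had another within 10000 bp. The 446 sites were assigned to 409 genes, and 31 genes had 2 or more. Besides fkh-7 and dmd-6 with 4 each, mfb-1 and spat-2 had 3 each. At daf-5, a Sno/Ski family gene of the dauer pathway, 2 intronic sites had pooled signals of 32.2 and 27.4. At W02H3.3, 2 sites lay 453 bp apart, with signals of 48.7 and 25.2, and at F20B6.9 2 sites lay 707 bp apart, with 39.7 and 29.2.

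The GCGCAGG core was also counted at strong entries in promoters and exons. On X it was present at 2 of 45 such entries in ranks 1 to 1000 (4.44%, exact 95% interval 0.543 to 15.2), and at 0 of the 2 in ranks 1 to 100. In the list of replicate 2 it was at 2 of the 8 such entries in ranks 1 to 100 (25%, 3.19 to 65.1) and at 2 of 51 in ranks 1 to 1000, and in that of replicate 1 at 0 of 4 and 0 of 47. In the pooled list beyond rank 1000 it was at 5 of 828, or 0.604%.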
